A study of Homo sapiens with 8 samples.

Results

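A set of 10 mitotic kinesin genes was followed through an hnRNP U immunoprecipitation (IP) experiment in human hTERT-RPE1 cells: KIF11, KIF14, KIF15, KIF18A, KIF20A, KIF20B, KIF23, KIF2C, KIF4A and KIFC1. They were taken by gene symbol and are 10 of the 13471 genes in the authors' gene table. All 10 had a row and entered each fit, and no filter on low values was applied.

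Kinesins are ATP-driven motors that walk along microtubules or take their ends apart. Mitotic kinesins build the bipolar spindle, move and hold the chromosomes, and organise the spindle midzone and the midbody during cytokinesis. In proliferating cells their genes are transcribed mainly in G2 and M, and the DREAM complex holds them low earlier in the cycle by way of a promoter element called the cell cycle genes homology region (CHR). KIF11 encodes Eg5, the kinesin-5 motor that pushes the spindle poles apart, and it is the target of the inhibitor S-Trityl-L-cysteine (STLC). HnRNP U, also known as SAF-A, is an abundant nuclear protein that binds RNA and DNA.

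The study had 8 libraries in 4 groups of 2, all from hTERT-RPE1, a telomerase-immortalised line derived from human retinal pigment epithelium. Cells of the interphase groups received 2 mM thymidine for 24 h, which stops replication, and were taken without release. Cells of the mitosis groups received the same block, 6 h without thymidine and then STLC overnight. In each phase, 1 group was sequenced without IP and the other after IP with an antibody against hnRNP U, from cleared detergent lysates and RNA depleted of rRNA. Mitotic cells had thus been kept in an inhibitor of the KIF11 product itself, and phase, STLC and time in culture cannot be told apart in any comparison of phases. No IP by a non-specific antibody was analysed here, and binding to hnRNP U and carry-over on the beads cannot be told apart either. No label says that the replicates were separate cultures, so p-values measure the spread between these libraries, which may be technical.

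Levels are FPKM (fragment numbers divided by transcript length and library size), a relative unit in which a gene's value also depends on every other gene of its library. The top 10 genes held 58.4% to 63% of a library's summed FPKM where no IP was done and 12.4% to 20.6% after IP, and the part of this difference in the results was not tested. Total fragments per library are unknown. Depth relative to the first interphase library without IP ran from 0.639 to 1.19, and both ends were libraries of the mitotic IP. Pearson's r between replicates, over genes (which are not independent replicates), was 0.989 to 0.995. Of 8 markers of mitosis, 8 were higher in mitosis than in interphase without IP, and of 8 markers of G1 and S phase 6 were lower and 1, RRM2, was higher. Of 10 markers of retinal pigment epithelium, 6 had a row in the gene table, and RPE65, BEST1, RLBP1 and TYR had none. PMEL was at most 0.144 FPKM in any library, whereas MITF, OTX2, KRT8, KRT18 and TJP1 were at 3.33 FPKM or more in every library.

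Because the members were high together in mitosis (values below), their promoters were read for 2 elements known from cell cycle genes, the CHR (TTTGAA) and the CCAAT box (CCAAT). Sequences are from RefSeq (GRCh38.p14), with 300 bases per gene, 250 before the annotated start and 50 from it, and all 10 members matched. Both strands were searched and no matches overlapped. A CHR match was present in 8 of the 10 promoters (80%), against 10% of the 9858 promoters of genes in the gene table and 15.4% of all 27305 promoters. CCAAT was present in 8 of 10 (80%), against 37% and 35.7%, and both in 7 of 10 (70%), against 4.2% and 6.1%. The variant TTCGAA was in 0 of 10, against 1.7% and 1.5%. A match describes letters in this window and is not evidence that a factor binds there. The elements were chosen with the promoters in view, and the members with earlier results of these data known.

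In KIF11 a CCAAT box on the opposite strand (bases -53 to -49 from the start, which is +1) was followed by a CHR on the opposite strand at -28 to -23. KIF18A had both on its own strand, at -45 to -41 and -10 to -5. In KIF23 the CCAAT box was at -64 to -60 (opposite strand) and the CHR at -55 to -50, and in KIF4A they were at -58 to -54 (opposite strand) and -34 to -29. KIF2C matched neither TTTGAA nor CCAAT in the 300 bases. KIF20A had CCAAT at -94 to -90 and at -67 to -63 without TTTGAA, and KIF15 had TTTGAA without CCAAT. Spellings of the CHR other than TTTGAA and TTCGAA were not searched, so a CHR with other letters would be missed. The 4 promoters with both elements upstream and the 1 with neither are printed from -100 to +10 to show the spacing, 5′ to 3′ on the gene's strand. Capitals mark the elements, which read TTCAAA and ATTGG where the match is on the opposite strand. The stretches lie at chr10:92593030-92593139 (plus strand) for KIF11, chr11:28108147-28108256 (minus strand) for KIF18A, chr15:69414249-69414358 (plus strand) for KIF23, chrX:70290004-70290113 (plus strand) for KIF4A and chr1:44739737-44739846 (plus strand) for KIF2C.
KIF11: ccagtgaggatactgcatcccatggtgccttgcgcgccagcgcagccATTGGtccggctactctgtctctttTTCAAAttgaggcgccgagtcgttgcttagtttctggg
KIF18A: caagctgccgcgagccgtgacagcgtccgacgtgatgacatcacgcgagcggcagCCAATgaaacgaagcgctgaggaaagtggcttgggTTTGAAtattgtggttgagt
KIF23: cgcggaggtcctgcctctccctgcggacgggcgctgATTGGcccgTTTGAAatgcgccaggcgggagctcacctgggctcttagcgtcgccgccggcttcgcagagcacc
KIF4A: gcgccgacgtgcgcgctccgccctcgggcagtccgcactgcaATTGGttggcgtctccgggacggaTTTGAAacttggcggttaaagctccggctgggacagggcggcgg
KIF2C: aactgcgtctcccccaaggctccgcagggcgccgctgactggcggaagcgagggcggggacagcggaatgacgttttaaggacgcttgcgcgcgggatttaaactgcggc

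The first comparison set mitosis against interphase in RNA without IP. All 10 members rose, by 2.69-fold (KIF15) to 8.71-fold (KIF4A) in mean FPKM, and their median log2 difference was 2.60, against -0.002 over all genes. Differences here and below are on the log2(FPKM + 1) scale, from limma with Benjamini-Hochberg adjustment over 13471 genes and a call at an adjusted p below 0.05. Over all genes 26.2% were called higher and 25.5% lower in this comparison, against 10 of 10 members higher. The members' differences lay at percentiles 96.3 to 99.8 of all genes, and the members were chosen with earlier results of these data known. In a bulk sample, more cells in a phase and more RNA per cell cannot be told apart.

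Among the motors that set spindle bipolarity, KIF11 (chr10:92593286-92655395, plus strand, GENCODE 29 on GRCh38, as for all positions of genes below) was at 17.6 and 16.9 FPKM in the interphase libraries and at 104 and 107 FPKM in the mitotic ones. Its groups were far apart, and it had the highest mean of the members in either phase without IP, with only KIF23 overlapping it in interphase. The log2 difference was 2.55 (SE 0.125, adjusted p = 2.81e-06). KIF15 (chr3:44761717-44873376, plus strand) is a kinesin-12 that can keep spindles bipolar when Eg5 is inhibited. It was at 3.68 and 3.90 FPKM in interphase and 9.50 and 10.9 FPKM in mitosis, a log2 difference of 1.22 (SE 0.142, adjusted p = 0.000225). KIF15 thus had the lowest mean of the members in both phases and the smallest rise. KIFC1 (HSET, chr6:33391536-33409924, plus strand), a minus-end-directed motor that pulls against Eg5, was at 9.29 and 8.99 FPKM in interphase and 26.2 and 27.4 FPKM in mitosis. Its log2 difference of 1.45 (SE 0.146, adjusted p = 0.000107) was the second smallest.

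The 3 members that act on chromosomes and microtubule ends rose by more than KIF15 and KIFC1. The rise of KIF18A was near that of KIF11 (2.55), and differences between members were not tested. KIF18A (chr11:28020620-28108308, minus strand), which damps chromosome oscillations at the metaphase plate, went from 9.32 and 7.77 FPKM to 56.9 and 60.4 FPKM, a log2 difference of 2.65 (SE 0.125, adjusted p = 2.33e-06). KIF2C (MCAK, chr1:44739818-44767767, plus strand), a microtubule depolymerase at centromeres, went from 11.3 and 8.20 FPKM to 73.6 and 71.6 FPKM, a log2 difference of 2.79 (SE 0.141, adjusted p = 3.27e-06). The chromokinesin KIF4A (chrX:70290090-70420832, plus strand) went from 5.03 and 4.17 FPKM to 42.4 and 37.7 FPKM, a log2 difference of 2.88 (SE 0.145, adjusted p = 3.26e-06). In each of the 3 genes, interphase and mitotic libraries did not overlap. KIF4A has a near-identical copy, KIF4B, with its own row at 0.854 to 7.73 FPKM, and how the authors split reads shared by the copies is not stated, so both values are uncertain.

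The 4 members of the midzone and midbody also rose. KIF23 (MKLP1, chr15:69414246-69448427, plus strand) forms the centralspindlin complex with RACGAP1. It was at 18.0 and 15.3 FPKM in interphase and 62.2 and 70.2 FPKM in mitosis, a log2 difference of 1.93 (SE 0.159, adjusted p = 4.11e-05). KIF20A (MKLP2, chr5:138178719-138187715, plus strand), which carries the Aurora B complex to the midzone, went from 14.9 and 13.1 FPKM to 88.0 and 92.0 FPKM (log2 difference 2.60). The interval of KIF20A in the table runs to 138213343 and overlaps CDC23, so its values may include reads of that gene and are uncertain. KIF14 (chr1:200551497-200620734, minus strand), a midbody motor that binds citron kinase, went from 5.61 and 4.58 FPKM to 39.9 and 40.9 FPKM (log2 difference 2.77). KIF20B (MPP1, chr10:89701610-89774939, plus strand), a motor of late cytokinesis, went from 10.6 and 7.12 FPKM to 58.2 and 58.2 FPKM (log2 difference 2.61). Among the 10 members its interphase libraries were the farthest apart, with an SD of 2.48 FPKM on a mean of 8.87.

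**Figure D1:**
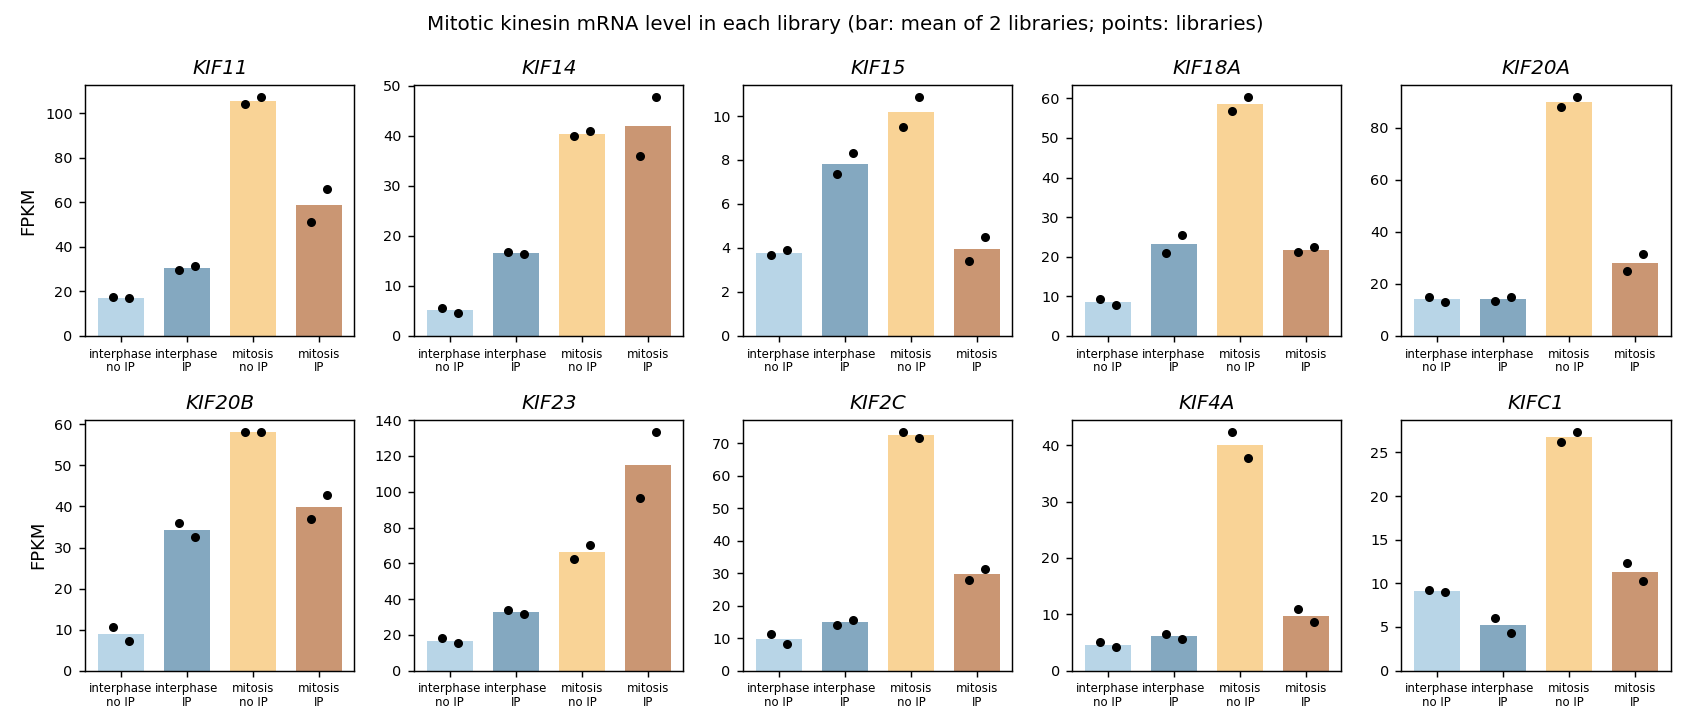
FPKM of each mitotic kinesin gene in the 8 libraries, with a panel per gene on its own linear axis from 0. Bars are means of 2 libraries and points are the libraries. Mitotic libraries without IP stand above interphase libraries without IP in all 10 panels (KIF11 at 104 and 107 against 17.6 and 16.9), and KIF23 alone has both mitotic IP libraries (96.4 and 134) above the mitotic libraries without IP.

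The order of the members by mean FPKM changed between phases. Without IP in interphase it ran KIF11, KIF23, KIF20A, KIF2C, KIFC1, KIF20B, KIF18A, KIF14, KIF4A and KIF15. The libraries of neighbours overlapped for KIF11 and KIF23, for KIF2C, KIFC1, KIF20B and KIF18A in turn, and for KIF14 and KIF4A. Without IP in mitosis it ran KIF11, KIF20A, KIF2C, KIF23, KIF18A, KIF20B, KIF14, KIF4A, KIFC1 and KIF15, and only KIF18A with KIF20B and KIF14 with KIF4A overlapped. Summed over the members, the level was 105 and 90.0 FPKM in interphase and 561 and 577 FPKM in mitosis. The share of KIF11 in this sum was similar in the 8 libraries, from 15.9% to 18.8%.

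The second comparison asked which members were enriched by the hnRNP U IP in interphase. Of the 10, 7 were higher in the IP than without it, 1 (KIFC1) was lower and 2 (KIF20A and KIF4A) passed no test. Their median log2 difference was 0.83, against 0.02 over all genes. In this comparison 37.6% of all genes were called higher and 37% lower. The count changed with an adjustment for transcript composition. When each library's trends on transcript length and GC were taken out, 4 members were higher (KIF18A, KIF20B, KIF2C and KIFC1) and 0 lower. In that fit 33.6% of all genes were called higher and 27.8% lower, so the members' share of higher calls was near the background.

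The largest enrichments were of KIF20B, KIF14 and KIF18A. KIF20B was at 36.0 and 32.6 FPKM in the IP against 10.6 and 7.12 FPKM without it (log2 difference 1.86, SE 0.163, adjusted p = 8.77e-06), which put it first among the members in the interphase IP. KIF14 was at 16.8 and 16.3 FPKM against 5.61 and 4.58 FPKM (1.53, SE 0.143, adjusted p = 1.28e-05). For KIF18A the IP libraries were at 21.0 and 25.6 FPKM against 9.32 and 7.77 FPKM (1.34, SE 0.125, adjusted p = 1.27e-05). In all 3 genes both IP libraries stood above both libraries without IP. With the length and GC trends removed, KIF20B was at 0.51 (adjusted p = 0.0213) and KIF18A at 0.48 (adjusted p = 0.00339), while KIF14 was at 0.31 and lost its call (adjusted p = 0.0781).

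KIF11 was moderately enriched, at 29.5 and 31.3 FPKM in the IP against 17.6 and 16.9 FPKM, a log2 difference of 0.78 (SE 0.125, adjusted p = 0.000387). With length and GC trends removed it was at -0.23 (adjusted p = 0.101), so its direction turned and the call was lost. KIF15 was at 7.36 and 8.31 FPKM in the IP (log2 difference 0.88, SE 0.142, adjusted p = 0.000414) and KIF23 at 33.8 and 31.7 FPKM (0.94, SE 0.159, adjusted p = 0.000556). Both lost the call without the trends, at 0.04 (adjusted p = 0.79) and 0.36 (adjusted p = 0.0596). KIF2C, at 14.2 and 15.6 FPKM in the IP, was higher by 0.58 (SE 0.141, adjusted p = 0.00495), and by 0.95 without the trends.

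KIFC1 was at 6.02 and 4.35 FPKM in the interphase IP, below both libraries without IP (9.29 and 8.99 FPKM), a log2 difference of -0.73 (SE 0.146, adjusted p = 0.00156). Without the length and GC trends it turned to 0.39 (adjusted p = 0.0236). For KIF20A the IP libraries, at 13.6 and 14.8 FPKM, lay within the range of 13.1 to 14.9 FPKM without IP (log2 difference 0.02, adjusted p = 0.9). KIF4A was at 6.56 and 5.63 FPKM in the IP, above both libraries without IP, but its log2 difference of 0.34 (SE 0.145) had an adjusted p of 0.0577. It was called with other scalings, at 0.47 with median centring (adjusted p = 0.0123) and 0.54 with quantile normalization (adjusted p = 0.00557).

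The members span a wide range of GC content, from 34.2% in the longest annotated transcript of KIF20B, at percentile 0.8 of all genes, to 57.95% in that of KIFC1. Their median GC was 41.8%, against 47.6% over the genes with an annotated transcript, and their median transcript length was 4036 nt, against 3627 nt. The order of the interphase IP effect among the members followed GC with a Spearman correlation of -0.90 (10 genes that share the 4 libraries, a description), and over 12678 genes it was -0.71. In mitosis the values were -0.36 over the members and -0.56 over all genes. With length, the members' correlation was 0.72 in interphase and 0.47 in mitosis, against 0.53 and 0.28 over all genes. The members' correlations thus had the signs of those over all genes, with that on GC weaker over the members in mitosis. Removal of the length and GC trends moved the members' median from 0.83 to 0.34 in interphase and from -1.18 to -1.39 in mitosis. The part of base composition in their IP values was not tested beyond this removal.

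**Figure D2:**
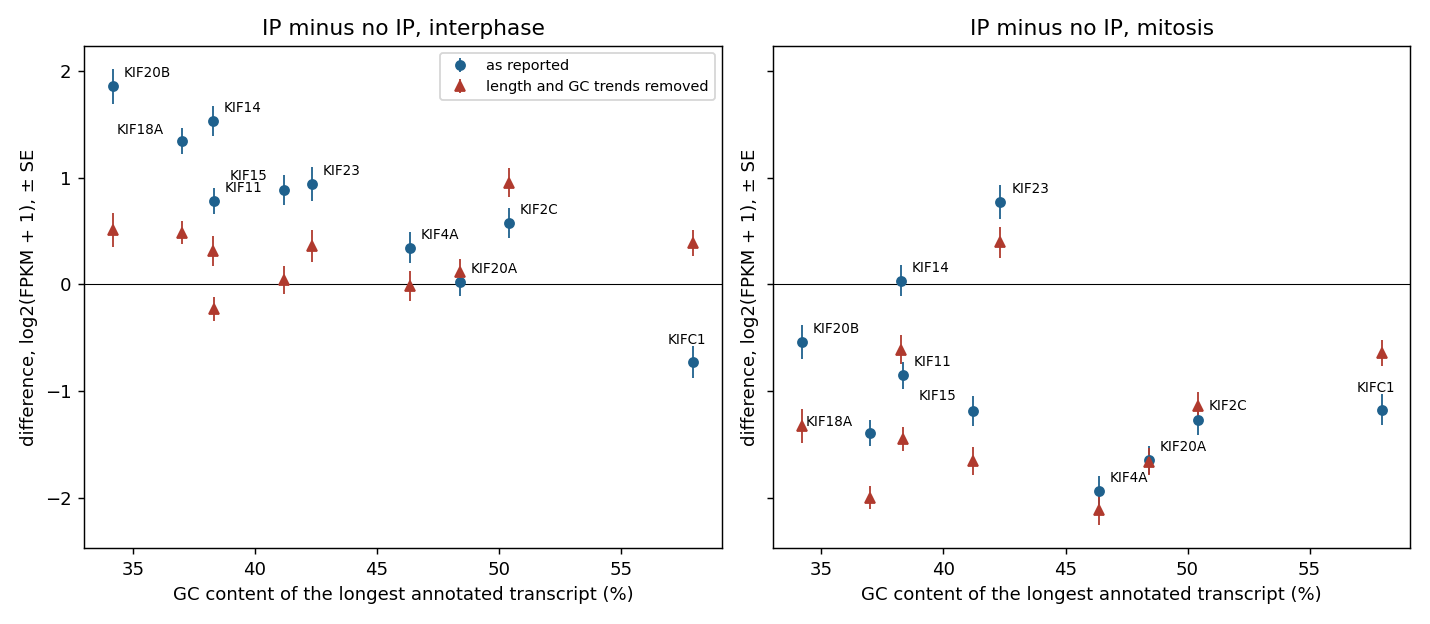
IP effect (log2(FPKM + 1), IP minus no IP, ± SE) of each member against the GC content of its longest annotated transcript, in interphase (left) and mitosis (right). Circles are the values as reported and triangles those with length and GC trends removed. In interphase the circles fall from KIF20B (1.86) to KIFC1 (-0.73) and the triangles lie between -0.23 and 0.95, whereas in mitosis 9 of 10 triangles are below 0.

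In mitosis most members were lower in the IP than without it. The libraries without IP enter both the IP comparisons and the first comparison, so these do not support each other. Of the 10, 8 were called lower, 1 (KIF23) was higher and KIF14 passed no test, and the median log2 difference was -1.18, against 0.005 over all genes. Over all genes 32.8% were called higher and 31.7% lower. Of the 8, 5 (KIF11, KIF15, KIF18A, KIF20B and KIF2C) had been called higher in the interphase IP, KIF20A and KIF4A had no call there and KIFC1 was lower in both phases. The share of all genes called higher in interphase and lower in mitosis was not counted. With length and GC trends removed, KIF11 (-0.23) and KIF15 (0.04) had no call in the interphase IP. The largest differences were those of KIF4A, at 10.9 and 8.61 FPKM in the IP against 42.4 and 37.7 FPKM (log2 difference -1.94, SE 0.145, adjusted p = 1.16e-05), and of KIF20A, at 24.8 and 31.6 FPKM against 88.0 and 92.0 FPKM (-1.65, SE 0.129, adjusted p = 1.36e-05). KIF4A had 4.10-fold and KIF20A 3.19-fold less FPKM in the IP. KIF4B, whose reads may be shared with KIF4A, was also lower (-1.28, adjusted p = 2.14e-05).

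KIF18A was at 21.1 and 22.3 FPKM in the mitotic IP against 56.9 and 60.4 FPKM, a log2 difference of -1.39 (SE 0.125, adjusted p = 2.45e-05). KIF2C was at 28.0 and 31.2 FPKM against 73.6 and 71.6 FPKM (-1.27, SE 0.141, adjusted p = 7.01e-05). Among the bipolarity motors, KIF11 was at 51.3 and 66.0 FPKM in the IP against 104 and 107 FPKM (-0.85, SE 0.125, adjusted p = 0.000333). Its IP libraries were further apart than the other 3 groups of the gene, but both were below either library without IP. KIF15 was at 3.39 and 4.49 FPKM against 9.50 and 10.9 FPKM (-1.18, SE 0.142, adjusted p = 0.000107), and KIFC1 at 12.3 and 10.3 FPKM against 26.2 and 27.4 FPKM (-1.18, SE 0.146, adjusted p = 0.000126). Each of these genes had its IP libraries wholly below its libraries without IP.

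KIF20B, at 36.8 and 42.7 FPKM in the mitotic IP against 58.2 and 58.2 FPKM, was lower by a smaller amount (-0.54, SE 0.163, adjusted p = 0.0167). Its call was lost without the first mitotic library without IP (adjusted p = 0.0607) and without the second (adjusted p = 0.0578), where the difference itself stayed at -0.54 and its SE rose to 0.212. It was also lost without the first mitotic IP library (-0.44, adjusted p = 0.0921). KIF14 was at 35.9 and 47.7 FPKM in the IP, on either side of the 39.9 and 40.9 FPKM without it (log2 difference 0.04, SE 0.143, adjusted p = 0.841). Its sign turned without the second mitotic IP library (-0.16), with quantile normalization (-0.18) and with the length and GC trends removed (-0.61), where it was called (adjusted p = 0.00442).

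KIF23 was the exception among the members. It was at 96.4 and 134 FPKM in the mitotic IP against 62.2 and 70.2 FPKM without IP, a log2 difference of 0.77 (SE 0.159, adjusted p = 0.00242). With the trends removed it stayed higher, by 0.39 (adjusted p = 0.0433). KIF23 was first by level in the mitotic IP, ahead of KIF11, and made up 30% and 33.5% of the members' summed FPKM there, against 11.1% and 12.2% in mitosis without IP and 17% to 18.3% in interphase. Its centralspindlin partner RACGAP1, at 280 and 320 FPKM in the mitotic IP against 130 and 155 FPKM, was also higher (1.07, SE 0.132, adjusted p = 0.000124). Unlike KIF23, RACGAP1 had no call in the interphase IP (0.27, adjusted p = 0.0931). Among the 22 partners and regulators described below, 6 were higher in the mitotic IP and 12 lower, against 32.8% and 31.7% of all genes. RACGAP1 had the smallest difference of the 6, below NEK7 (1.73), ECT2 (1.57), CDK1 (1.30), NEK9 (1.20) and AURKA (1.20). It was also the only one of them without a call in the interphase IP, where ECT2 was higher by 1.31.

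The difference between the IP effects in mitosis and interphase was tested directly as an interaction. This contrast contains the first comparison with its sign reversed and uses the same libraries, so it is not separate support for the comparisons above. It was negative for all 10 members and called for 8, with a median of -1.75, against 0.07 over all genes, where 27.2% were called higher and 19.9% lower. KIF18A had the largest, -2.74 (SE 0.177, adjusted p = 5.06e-05): its FPKM was 2.73-fold higher in the IP in interphase and 2.70-fold lower in mitosis. KIF20B followed at -2.40 (SE 0.23, adjusted p = 0.000115), KIF4A at -2.28 (SE 0.205, adjusted p = 9.23e-05) and KIF15 at -2.07 (SE 0.201, adjusted p = 0.000121). KIF2C, KIF20A, KIF11 and KIF14 lay between -1.84 and -1.49, with adjusted p of 0.000514 or less. For KIF11 the difference was -1.63 (SE 0.176, adjusted p = 0.000185). Between same-numbered libraries, which no label marks as pairs, it was -1.72 and -1.54.

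The members without a call were KIF23 (-0.17, SE 0.225, adjusted p = 0.575) and KIFC1 (-0.45, SE 0.206, adjusted p = 0.105), which does not show that their IP effects were alike in the 2 phases. KIF23 turned to 0.03 without the length and GC trends and to 0.07 without the first mitotic IP library. KIFC1 was called with the trends removed (-1.03, adjusted p = 0.00205), with quantile normalization (-0.61, adjusted p = 0.0246) and without the second interphase IP library (-0.65, adjusted p = 0.0224). The 8 called members kept their call and sign under each alternative that was run, the removal of the trends included (-0.93 to -2.48).

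**Figure D3:**
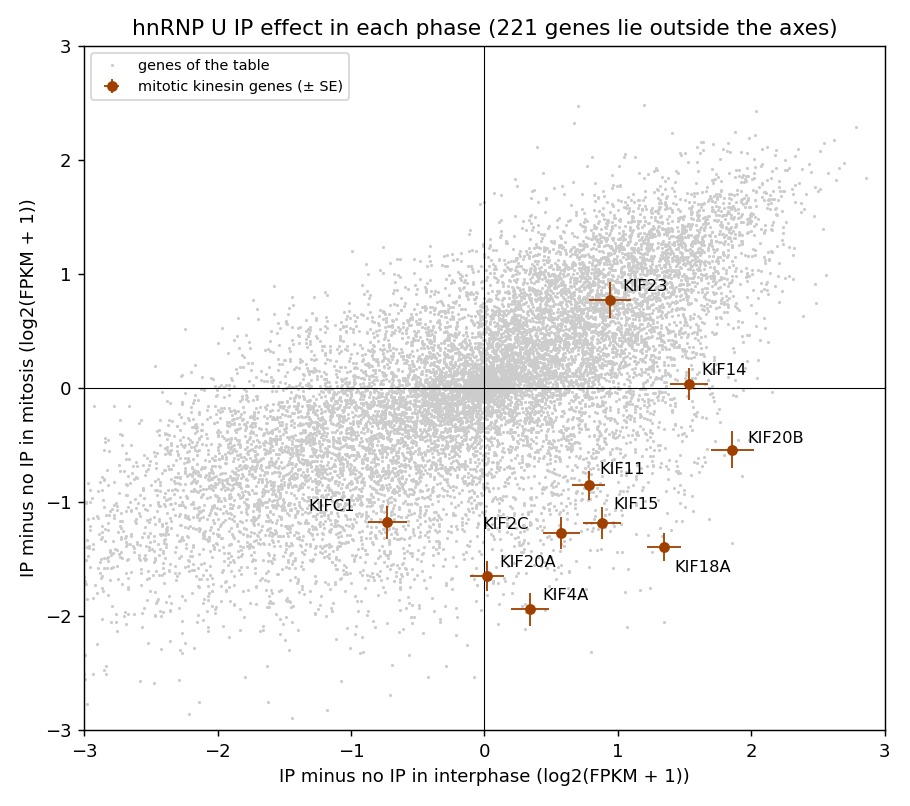
IP effect in mitosis (vertical) against that in interphase (horizontal), both as log2(FPKM + 1), IP minus no IP. Grey points are the genes of the table, of which 221 lie outside the axes, and orange points with bars (± SE) are the 10 members. Most members lie to the right of 0 and below 0, KIF20A close to 0 in interphase (0.02), with KIF23 in the upper right (0.94 and 0.77) and KIFC1 in the lower left (-0.73 and -1.18).

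Within the IP libraries, mitosis against interphase gave a smaller rise than without IP. These comparisons use the same IP libraries as the ones above and are set beside them as values only. Of the 10 members, 7 were higher in the mitotic IP, 1 (KIF15) was lower and 2 (KIF18A and KIF20B) passed no test, with a median of 0.93, against 0.08 over all genes. In this comparison 35.8% of all genes were called higher and 25.6% lower. KIF23 rose the most (1.76, SE 0.159, adjusted p = 2.38e-05), followed by KIF14 (1.27, adjusted p = 7.79e-05) and KIFC1 (1.00, adjusted p = 0.000356). KIF2C, KIF20A, KIF11 and KIF4A rose by 0.95, 0.93, 0.92 and 0.60. For KIF11 this meant 29.5 and 31.3 FPKM in the interphase IP and 51.3 and 66.0 FPKM in the mitotic IP.

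KIF15 fell in the IP from 7.36 and 8.31 FPKM to 3.39 and 4.49 FPKM (log2 difference -0.84, SE 0.142, adjusted p = 0.000845), although it rose without IP. KIF18A was at 21.0 and 25.6 FPKM in the interphase IP and 21.1 and 22.3 FPKM in the mitotic IP (-0.09, adjusted p = 0.556), so its libraries overlapped. KIF20B was at 36.0 and 32.6 FPKM and then 36.8 and 42.7 FPKM (0.21, adjusted p = 0.299). It was called with the trends removed (0.48, adjusted p = 0.0269), and its sign turned with quantile normalization (-0.03). By mean level the interphase IP ran KIF20B, KIF23, KIF11, KIF18A, KIF14, KIF2C, KIF20A, KIF15, KIF4A and KIFC1, and the mitotic IP ran KIF23, KIF11, KIF14, KIF20B, KIF2C, KIF20A, KIF18A, KIFC1, KIF4A and KIF15. Neighbours overlapped in the interphase IP for KIF20B with KIF23, KIF2C with KIF20A and KIF4A with KIFC1. In the mitotic IP they overlapped for KIF14 with KIF20B, KIF2C with KIF20A and KIFC1 with KIF4A.

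**Figure D4:**
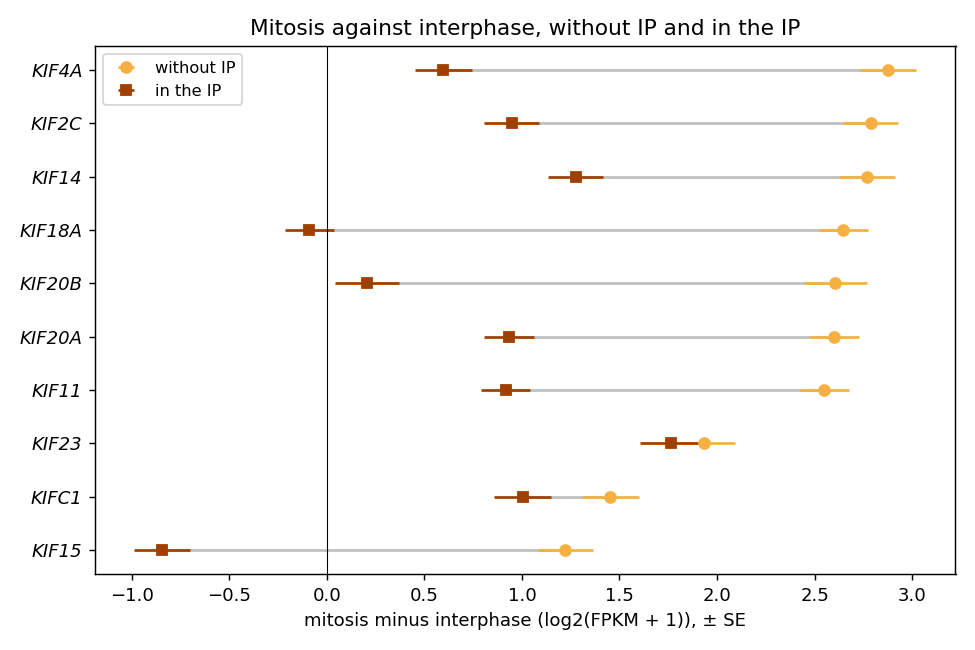
Mitosis minus interphase for each member (log2(FPKM + 1), ± SE), without IP (circles) and in the IP (squares), joined by a grey line. All 10 circles lie right of 0, from KIF15 (1.22) to KIF4A (2.88), and the squares run from KIF15 (-0.84) to KIF23 (1.76). The pairs lie nearest to each other in KIF23 and KIFC1.

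Other kinesins were read for comparison. Of 8 further mitotic kinesin symbols, 6 were measured (CENPE, KIF2A, KIF4B, KIF18B, KIF22 and KIF24). KIF2B had no row, and KIF10 is another name of CENPE. Without IP all 6 rose in mitosis, with a median of 1.75. The kinetochore motor CENPE went from 4.37 and 2.48 FPKM to 22.9 and 19.2 FPKM (2.35, adjusted p = 6.47e-05). The depolymerase KIF18B rose by 2.38 and the chromokinesin KIF22 by 1.37. Of 20 transport and other kinesins measured, 6 rose, 5 fell and 9 passed no test, with a median of -0.03. These counts of the 20 were near the shares over all genes, 26.2% higher and 25.5% lower. KIF5B, the ubiquitous kinesin-1 heavy chain, had the largest rise of these (1.42, adjusted p = 0.000105), and KIF27 rose by 0.60.

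In the interphase IP, 3 of the 6 other mitotic kinesins were higher and 2 lower. Of all genes, 37.6% were called higher and 37% lower there, 32.8% and 31.7% in the mitotic IP, and 27.2% and 19.9% in the interaction. KIF2A, a depolymerase related to KIF2C, was at 66.6 and 78.6 FPKM against 13.4 and 15.4 FPKM (2.25, adjusted p = 7.23e-07), and CENPE was higher by 1.48. KIF22 was lower (-0.99), as was KIF18B (-0.32). In mitosis 2 of the 6 were higher and 4 lower in the IP, among them CENPE (-1.16, adjusted p = 0.00117), KIF18B (-0.71) and KIF22 (-0.45), while KIF2A stayed higher (0.97). The interaction was called lower for 3, CENPE (-2.65, adjusted p = 0.00022), KIF4B (-1.33) and KIF2A (-1.29), and higher for KIF22 (0.54, adjusted p = 0.0388). KIF18B and KIF22 were higher in mitosis within the IP, by 2.00 and 1.91.

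Among the 20 transport and other kinesins, 10 had higher and 7 lower values in the interphase IP (median 0.30), and 2 had higher and 9 lower values in the mitotic IP (median -0.21). Shares of all genes called higher and lower were 37.6% and 37% in the interphase IP and 32.8% and 31.7% in the mitotic IP. KIF3A (1.52) and KIF5B (1.51) had the largest enrichments in interphase. In mitosis KIF3C (-1.86) and KIF1C (-1.49) had the largest differences. The interaction was called lower for 9 and higher for 3 (median -0.35), against 19.9% and 27.2% of all genes, with KIF5B at -1.93 and KIF21A at -1.41. Between phases within the IP, 3 rose and 11 fell in mitosis, against 35.8% and 25.6% of all genes, led by KIF3B (-1.13) and KIF21A (-0.86). Transport kinesins thus had lower medians than the members in mitosis without IP and in the interphase IP, and a median nearer 0 in the mitotic IP, and the difference between the lists was not tested.

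Of 22 measured partners and regulators of mitotic kinesins (PLK1 and AURKA are also among the markers of mitosis), 17 rose in mitosis without IP and 1 (NEK6) fell, with a median of 1.71. The shares over all genes were 26.2% higher and 25.5% lower. HMMR (2.55, adjusted p = 6.16e-07), a spindle protein that binds TPX2, and the kinase AURKA (2.52, adjusted p = 3.56e-06) rose the most. TPX2, which targets Eg5 and Aurora A to the spindle, rose by 2.11, RACGAP1 by 1.89 and PRC1, the midzone bundler that recruits KIF4A, by 1.78. In the interphase IP 10 had higher and 5 lower values (median 0.14), against 37.6% and 37% of all genes. NEK7 (2.16) and the dynein heavy chain gene DYNC1H1 (1.90) were farthest from 0.

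In the mitotic IP 6 of the 22 were higher and 12 lower (median -0.55). Of all genes, 32.8% were called higher and 31.7% lower there, 27.2% and 19.9% in the interaction, and 35.8% and 25.6% within the IP. The higher ones were NEK7 (1.73), ECT2 (1.57), CDK1 (1.30), NEK9 (1.20), AURKA (1.20) and RACGAP1 (1.07), and the lower ones included those that follow. HMMR was at 10.3 and 11.6 FPKM against 58.6 and 57.5 FPKM (-2.31, adjusted p = 6.4e-06), TPX2 at 34.2 and 39.6 FPKM against 129 and 136 FPKM (-1.82, adjusted p = 6.4e-06) and PRC1 at 47.5 and 53.8 FPKM against 131 and 138 FPKM (-1.39, adjusted p = 1.86e-05). TPX2 was at 30.3 and 30.4 FPKM in the interphase IP, against 29.9 and 30.0 FPKM without it (0.02, adjusted p = 0.876). The interaction was called lower for 10, with HMMR (-3.11), ANLN (-2.47), TPX2 (-1.83) and PRC1 (-1.05), and higher for 6, with RACGAP1 at 0.80 (adjusted p = 0.00772). Within the IP, 14 rose and 6 fell in mitosis, with AURKA (3.37), PSRC1 (3.09) and RACGAP1 (2.69) high and TPX2 at 0.27 (adjusted p = 0.0456).

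**Figure D5:**
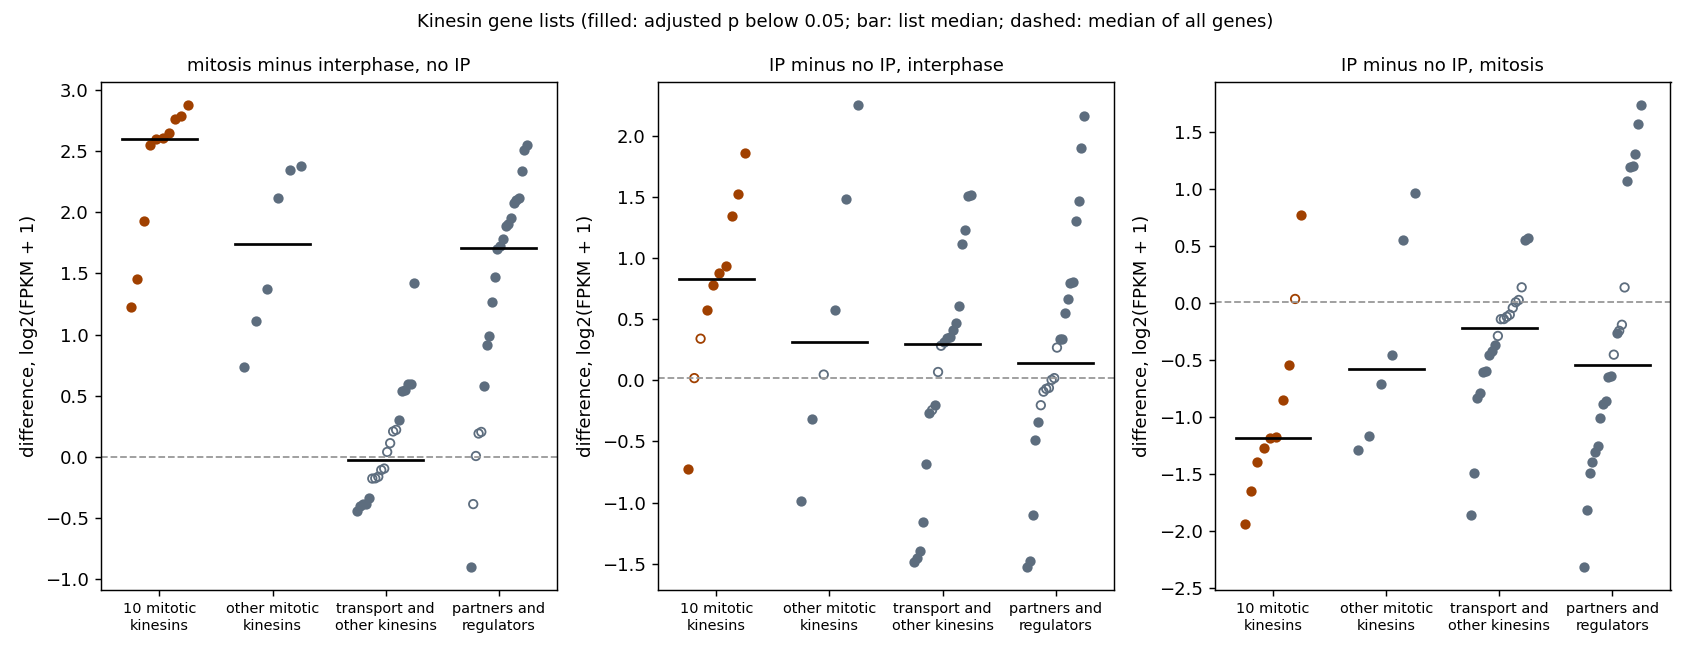
Differences (log2(FPKM + 1)) of the 10 members, 6 other mitotic kinesins, 20 transport and other kinesins and 22 partners and regulators, with a point per gene and each panel on its own axis. Filled points have an adjusted p below 0.05, bars are list medians and the dashed line is the median of all genes. The members' medians are 2.60 for mitosis against interphase without IP, 0.83 for the IP in interphase and -1.18 for the IP in mitosis.

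The genes whose pattern over the 8 libraries was most like that of KIF11 were ranked by the root mean square difference of log2(FPKM + 1), each gene centred on its own mean, among 11270 genes with a mean of at least 1 FPKM. The nearest were BUB1B (0.187), HJURP (0.195), KIF2C (0.208), TTF2 (0.224) and NAV2 (0.266). BUB1B encodes the checkpoint protein BubR1 and was at 12.5, 24.1, 84.1 and 35.6 FPKM as means of interphase without and with IP and mitosis without and with IP. KIF11 had means of 17.2, 30.4, 106 and 58.6 FPKM in the same order. HJURP, the chaperone that loads CENP-A at centromeres, had 15.8, 24.3, 69.4 and 51.7 FPKM. Of the other members, KIF18A ranked 12, KIF20A 18, KIF14 35, KIF20B 41, KIF4A 46, KIF23 198, KIFC1 315 and KIF15 1155. KIF15, KIFC1 and KIF23 were thus the members least like KIF11 by this measure, which mixes the effects of phase and IP.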

How the data were processed

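RNA of 8 hTERT-RPE1 libraries was measured by directional RNA sequencing. The authors deposited FPKM per gene on build hg38, per the file headers, and TopHat and StringTie are named in the submitters' processing notes without versions. Treatment of shared reads and use of strand in counting are not given in the sources used here. The deposited ratio columns are quotients of FPKM columns of the same replicate number and were not used, nor was a table of lncRNAs on hg19. The gene table held no value of 0.

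Log2(FPKM + 1) values of all 13471 genes were fitted with limma 3.58.1 in R 4.3.3 (lmFit, eBayes with trend), with 1 coefficient per group, 8 libraries and 4 residual degrees of freedom. P-values were adjusted by Benjamini-Hochberg within each of 5 comparisons. This scale understates changes of genes near 1 FPKM. The code of the test was checked on simulated data with independent noise and a small share of changed genes. Far more genes were called here, so this checked the code and not the error rate in these data. Positions, transcript length and GC content came from GENCODE 29 (GRCh38, the same assembly as hg38), matched by symbol for 12678 genes (94.1%). Depth is unknown in counts, so no interval or detection limit is given, and relative depth came from the steps between low FPKM values.

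The members and lists were chosen with earlier results of these data known. Named are the 10 members, CENPE, KIF22, KIF18B, RACGAP1, PRC1, TPX2 and KIF4B, the 2 largest calls of each kinesin or partner list in each comparison, and the 5 genes most like KIF11. The partners called higher in the mitotic IP are named as well. Alternatives were the replicate number as a block, a pseudocount of 0.1, a mean of at least 1 FPKM, median centring, quantile normalization, removal of length and GC trends, eBayes without trend, only the libraries compared, and leaving out each library.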

Additional observations from a re-analysis of the deposited data

Results flagged for a closer look

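The effect of the hnRNP U IP differed between mitosis and interphase, by the interaction test in limma, for 8 of the 10 mitotic kinesin genes, against 19.9% of all genes called in this direction. On the log2 scale, the effect in mitosis minus that in interphase was -1.63 for KIF11, -1.49 for KIF14, -2.07 for KIF15 and -2.74 for KIF18A. For the other 4 it was -1.67 (KIF20A), -2.40 (KIF20B), -1.84 (KIF2C) and -2.28 (KIF4A). Between same-numbered libraries, which were not taken as pairs, the differences were negative for each of the 8 genes. The interaction uses the same libraries as the other comparisons and is not separate support for them.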

How the results depend on the processing

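For mitosis against interphase without IP, all 160 values of the members under the alternatives kept direction and call. In the interphase IP 145 of 160 did, in the mitotic IP 154, in the interaction 145 of 150 and in the comparison within the IP 157. The fit on only the libraries compared was not run for the interaction, which uses all 8. The removal of length and GC trends changed the most. Under it, the members higher in the interphase IP numbered 4 and those lower 0, against 33.6% and 27.8% of all genes called so, and direction turned for KIF11 (-0.23), KIF4A (-0.015) and KIFC1 (0.39) in the interphase IP, for KIF14 (-0.61) in the mitotic IP and for KIF23 (0.032) in the interaction. With quantile normalization it turned for KIF14 in the mitotic IP (-0.18) and for KIF20B between phases within the IP (-0.026). Leaving out each library in turn, KIF20A in the interphase IP ranged from -0.068 (without the second interphase library without IP) to 0.107, and was -0.038 without the second interphase IP library. KIF18A within the IP ranged from -0.228 to 0.047 (without the second interphase IP library), KIF23 in the interaction ranged from -0.402 to 0.065 (without the first mitotic IP library) and KIF14 in the mitotic IP from -0.163 (without the second mitotic IP library) to 0.236. The cause was not tested. Median centring moved the median of all genes by 0.125 in the interphase IP and by -0.109 between phases within the IP.

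The labels do not say that a replicate number marks a shared culture or lysate, although the authors' ratio columns set same-numbered libraries against each other. The 6 correlations of same-numbered deviations between groups ran from 0.088 to 0.528, with 5 above 0.1, so the numbers were not taken as pairs and a pairing was not excluded. With a replicate block, 8 members were higher in the interphase IP, against 38.7% of all genes, since KIF4A was called (0.34, adjusted p = 0.0106), and the other 49 values kept direction and call. KIF4A was also called with a pseudocount of 0.1 (adjusted p = 0.0456), the filter at 1 FPKM (0.0467), median centring (0.0123), quantile normalization (0.00557) and without either mitotic IP library (0.0422 and 0.0416). Depth in fragments is unknown, so counting error could not be set apart from the spread of the 2 libraries a group; the lowest member value was 3.39 FPKM (KIF15).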
